A study of Mus musculus with 4 samples.

Results

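RNA abundance in mouse brain was compared between the F1 hybrids of 2 strains and the strains themselves, with 2 hybrid libraries (F1i and F1r) set against 2 parental libraries (B6 and CAST), which are all 4 libraries of the series. B6 is C57BL/6, the standard laboratory strain, and CAST is CAST/EiJ, an inbred strain derived from wild Mus musculus castaneus; F1i is labelled C57BL/6 x CAST/EiJ and F1r CAST/EiJ x C57BL/6. All groups are labelled wild type, no treatment is named, and the sources used here do not give age, sex or which parent was the dam. Each group is 1 library made from RNA pooled over the left hemispheres of 5 mice (the design text of the series says whole brain), so there are no replicates. No value below has a test, or an error that covers differences between mice or pools. FPKM, fragment numbers corrected for transcript length and sequencing depth, were summed per gene over transcripts of at least 200 bases, which gave 45215 genes, and the 9192 genes whose mean over all libraries was 5 FPKM or more were compared.

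Expression in an F1 hybrid is usually described by where it falls between the parents. It is called additive when it lies midway, dominant when it matches one parent, and transgressive when it lies outside the range of both. Because an F1 animal carries one copy of each autosomal gene from each strain, a gene whose level is set only by its own regulatory sequence is expected near the midpoint, whereas genes on the X chromosome of a male and in the mitochondrial genome come from one parent alone.

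All differences are on log2(FPKM + 1), a scale that understates changes of weakly expressed genes. For each gene the gap is the distance from the hybrid library nearest to the parents to the parental library nearest to the hybrids. It is positive when both hybrids lie above both parents, negative when both lie below, and 0 when the ranges overlap. A gap of at least 0.32, or 25% on FPKM + 1, was called. A gene is marked uncertain when at least 5% of the 31-base words of its transcripts recur in other genes, because reads of such copies can be assigned to either. The worth of 1 fragment in long genes gave depths relative to B6 of 0.731 in CAST, 0.825 in F1i and 0.754 in F1r, and the median gene compared had about 1667, 1256, 1370 and 1280 fragments in B6, CAST, F1i and F1r.

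The hybrids stayed close to the parental range. Both hybrids lay above both parents by the called gap for 3 genes (0.0326% of 9192) and below both for 7 (0.0762%). After each library was rescaled to the same total over the genes compared, the counts were 3 and 2, with other genes among the 3. Above the parents only Gm14391 was called both ways. Elfn1 and AC158239.2 were no longer called, and Snrpe and Rpl30-ps10 were. Such a total is weighted by the most abundant RNAs: the highest gene mean was 210031 FPKM, beside totals of 635506 in F1r to 719338 in B6. The divisors were 1.07, 0.946, 1.04 and 0.945 in B6, CAST, F1i and F1r. Scaling by the median ratio over genes (median-ratio scaling) had divisors from 0.988 to 1.013 and gave 3 above and 8 below. The difference between the hybrid mean and the parental mean had a standard deviation across genes of 0.17, against 0.58 for CAST minus B6 and 0.28 for F1r minus F1i. The first is between means of library pairs, which averaging alone narrows, and the others are between single libraries. At any gap, 841 genes (9.15%) had both hybrids above both parents and 859 (9.35%) both below. Libraries in random order would also place both hybrids outside the parents in a part of the genes. These shares are therefore no measure of an effect of the cross. The median size of these 1700 gaps was 0.04, or 2.62%, less than the median counting error of 0.06 estimated from the fragments. Only 191 of the 1700 gaps exceeded 2 counting errors (99 above and 92 below), which cover fragment counting and not differences between mice or pools, and 688 exceeded the difference between both hybrids. At 1.1-fold, 42 genes lay above (0.457%) and 75 below (0.816%).

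**Figure D1:**
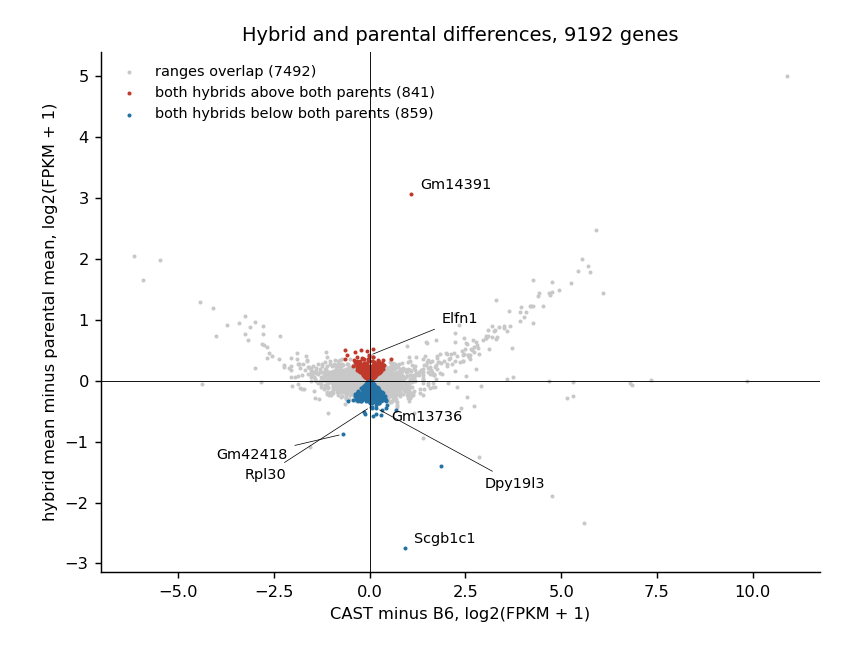
Difference between the hybrid mean and the parental mean (vertical) against the difference between CAST and B6 (horizontal), both on log2(FPKM + 1), for 9192 genes, 1 point each. The 841 genes with both hybrids above both parents (red) and the 859 below (blue) cluster where the parents are alike, as the definition of the gap favours. The arms that bend upward at both sides are genes of overlapping range and come with the averaging of logs.

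Most gaps were found where the parents were alike, which comes with the definition, since a wider parental range leaves less room outside it. Of 3751 genes with parents less than 1.1-fold apart, 682 lay above and 672 below, while of 373 genes (4.06%) with parents at least 2-fold apart 1 lay above and 1 below. Hybrid means at least 1.5-fold from the mean of the parental logs numbered 77 higher (0.838%) and 8 lower (0.087%), but against the arithmetic mean of the parental FPKM they numbered 4 (0.0435%) and 13 (0.141%). A hybrid at the arithmetic midpoint of unequal parents lies above the mean of their logs, so the first pair of counts follows the scale.

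The 2 protein-coding genes called above both parents were Gm14391, described with the other placeholder names, and Elfn1. Elfn1 encodes a postsynaptic adhesion protein that shapes synapses onto interneurons. The gene (chr5:139907943-139974722, plus strand, GRCm38) stood at 5.05 and 5.00 FPKM in B6 and CAST against 6.61 and 7.46 in F1i and F1r, a gap of 0.33. Its values did not overlap, and the parents differed by less than either hybrid did from them. With libraries rescaled to the same total the gap was 0.23, which is not called, and the leading transcript alone, with 63.1% of the gene's FPKM, had a gap of 0.13.

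The next largest gaps above the parents were in genes of transcription, splicing, secretion, membranes and axons, none of them called. Irf2, an interferon regulatory transcription factor, was at 5.85, 5.68, 7.86 and 7.43 FPKM in B6, CAST, F1i and F1r, just under the limit with a gap of 0.299. Sdf2l1, a component of chaperone complexes in the endoplasmic reticulum, was at 13.4, 11.8, 15.7 and 16.9 FPKM. F1i was the higher hybrid for Irf2 and F1r for Sdf2l1, and the leading transcript of Irf2 alone, with 40.9% of its FPKM, overlapped. Kcnc4, a voltage-gated potassium channel subunit, was at 11.4, 11.2, 13.7 and 13.3 FPKM. Lrrc4c, the netrin-G1 ligand at synapses, was at 29.0, 27.3, 33.5 and 35.9 FPKM, although its leading transcript alone had a gap of only 0.002. In both genes the parents lay within 1.1-fold of each other.

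Egr3, an activity-regulated transcription factor, was at 11.9, 10.6, 13.8 and 15.4 FPKM in B6, CAST, F1i and F1r. Faim2, an inhibitor of Fas-induced cell death in neurons, was at 61.9, 58.5, 71.0 and 72.3 FPKM, and its gap of 0.19 was 10.2 times its counting error. Nefm, the medium neurofilament subunit, was at 44.5, 41.0, 50.9 and 53.3 FPKM; it overlaps Nefl on the opposite strand. In these 3 genes B6 was the higher parent and F1r the higher hybrid. Anln, an actin-binding scaffold protein, was at 10.7, 9.44, 12.3 and 12.7 FPKM. Atn1 (83.6% shared words) and Pgap2 (12%) are uncertain, and with its copy summed Atn1 had no gap.

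**Figure D2:**
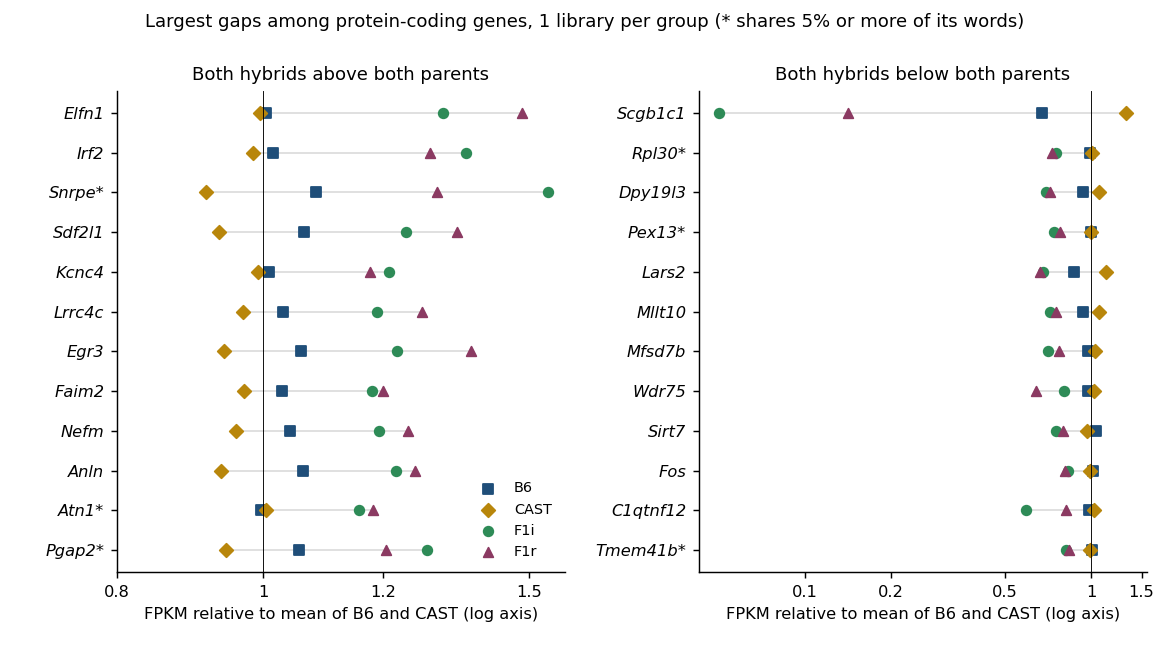
FPKM of each library relative to the mean of B6 and CAST (log axis) for the 12 protein-coding genes with the largest gaps above both parents (left) and below both parents (right), placeholder names such as Gm14391 being passed over, 1 point per library and * for genes with 5% or more shared words. Circles (F1i) and triangles (F1r) lie clear of squares (B6) and diamonds (CAST) in each row; of the 24 genes drawn, only Scgb1c1 departs by more than 2-fold.

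Among all genes below both parents, Scgb1c1 had the largest gap, the only one of 2-fold or more (0.0109% of genes). This secretoglobin, a small secreted protein of airway and nasal epithelium, was at 11.1 and 21.9 FPKM in B6 and CAST but at 0.828 and 2.34 in F1i and F1r, a gap of -1.86. The gene lies at chr7:140845547-140846769 (plus strand). No words are shared with other genes. Other genes of nasal mucosa and olfactory epithelium were set beside it: of the 12 other listed genes, 5 lay below both parents at any gap and 1 above (Gnal). The 5 all have a mean FPKM under 5. Of the listed genes with a mean from 1 to 5, 4 of 5 lay below, against 10.9% of all 4576 genes in that range. Cyp2a5 (54.6% shared words) and Cbr2 (14.97%), both among the 4, are uncertain. The lists were chosen with earlier results of these data known, so setting the 4 against 10.9% is a description and not a test. The 9 members with a mean FPKM under 5 summed to 5.20 and 24 FPKM in B6 and CAST and to 1.63 and 3.91 in F1i and F1r. Omp, which defines olfactory sensory neurons, was at 3.99, 7.11, 4.31 and 4.65 FPKM and did not lie outside the parents. The part of other tissue in the Scgb1c1 value was not tested. In pooled tissue, fewer cells of a type and less RNA per cell cannot be told apart.

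Rpl30 (chr15:34440505-34443640, minus strand), a protein of the large ribosomal subunit, was at 141 and 143 FPKM in B6 and CAST against 107 and 104 in F1i and F1r, a gap of -0.40. It is uncertain, with 12.7% shared words, because processed pseudogenes (intronless copies of the messenger RNA) carry almost the same sequence. The copy Rpl30-ps10 on the X chromosome (96.8% shared words) lay on the opposite side, at 12.5, 11.9, 19.6 and 15.6 FPKM. Over 347 aligned coding bases the pair differed at 3. The first 60 bases from the start codon are shown because 2 of these differences fall there (G10T and C20T, counted from the A of the start codon, gene first); capitals mark them, and the sequences are those of GENCODE M21 transcripts (GRCm38).
Rpl30: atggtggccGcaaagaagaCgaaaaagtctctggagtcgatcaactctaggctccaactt
Rpl30-ps10: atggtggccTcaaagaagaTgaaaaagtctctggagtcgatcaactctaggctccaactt
When FPKM times length was summed over Rpl30 and its 7 near-identical copies, the gap was -0.31, below both parents still but not called. The 12.1-fold ratio of the gap to its counting error for Rpl30 alone does not cover errors of assignment.

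Another gene and its copy stood the other way round. Snrpe, a core Sm protein of spliceosomal ribonucleoproteins, was above both parents at 40.3, 34.0, 57.3 and 48.4 FPKM in B6, CAST, F1i and F1r, while its processed pseudogene Snrpert was below both at 19, 26.3, 16.4 and 17.1. Both are uncertain, with 13.8% shared words in Snrpe and 71.5% in Snrpert. The 279 coding bases differed at 3 positions. Summed, the pair kept a gap of 0.17 above both parents. After rescaling to the same total Snrpe alone had a gap of 0.43, which is called.

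Dpy19l3, a C-mannosyltransferase of the endoplasmic reticulum, was called below both parents at 10.2, 11.6, 7.57 and 7.79 FPKM in B6, CAST, F1i and F1r, a gap of -0.35. Pex13, which docks import receptors at the peroxisome membrane, was called at 11.6, 11.6, 8.64 and 9.05 FPKM, a gap of -0.33; it shares 5.71% of its words, overlaps Pus10 on the opposite strand and is uncertain. In both genes the hybrids were nearly equal. Rescaled to the same total, the gaps were -0.18 for Dpy19l3 and -0.17 for Pex13, and the leading transcript of Dpy19l3 alone overlapped. Rescaling also took Rpl30 to -0.26.

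Further genes lay below the parents without reaching the limit. Lars2, the mitochondrial leucyl-tRNA synthetase, was at 5.38, 6.97, 4.20 and 4.08 FPKM in B6, CAST, F1i and F1r. Mllt10, a cofactor of a histone methyltransferase, was at 11.3, 12.8, 8.69 and 9.10 FPKM. In both, CAST was the higher parent and the hybrids were nearly equal. Mfsd7b, a heme exporter, was at 5.83, 6.17, 4.24 and 4.62 FPKM. Wdr75, a factor of ribosomal RNA processing, was at 12.2, 12.8, 10.1 and 8.03 FPKM, and Sirt7, a nucleolar deacylase, at 10.8, 10.1, 7.84 and 8.35; Sirt7 overlaps Mafg on the same strand. In these 3 genes the parents lay within 1.1-fold of each other.

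Fos, the activity-regulated transcription factor, was at 17.5, 17.1, 14.4 and 14.0 FPKM. C1qtnf12, a secreted adipokine, was at 8.10, 8.45, 4.89 and 6.75 FPKM, and its gap was 1.85 times its counting error. Tmem41b, an endoplasmic reticulum lipid scramblase, is uncertain, and had no gap with its copy summed. Of the 24 protein-coding genes named in both directions, 22 had a gap of more than 2 counting errors and 22 a gap larger than the difference between the hybrids. They were chosen for the largest gaps, which favours both counts. Over all 1700 genes outside the parents the numbers were 191 and 688. The leading transcript lay on the same side as the gene for 14 of the 24, 9 of the 12 above and 5 of the 12 below.

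Other gene types gave few examples. Snhg20, a small nucleolar RNA host gene (6.45% shared words, uncertain), was at 26.1, 19.8, 31.5 and 32.4 FPKM, and the pseudogene Rps25-ps1 (82.2%, uncertain) at 5.93, 6.06, 6.69 and 7.67. Below the parents, the antisense RNA of the Rosa26 locus, Gt(ROSA)26Sor, was at 12.5, 15.5, 8.37 and 10.01 FPKM. Neat1, the scaffold RNA of nuclear paraspeckles, was at 16.7, 17.3, 13.9 and 14.9 FPKM. After rescaling to the same total Neat1 had no gap, and the same was true of Snrpert.

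The remaining called genes had placeholder names. Gm14391, a zinc finger gene of a near-identical family on chromosome 2, was above both parents at 0.672, 2.53, 14.7 and 25.3 FPKM in B6, CAST, F1i and F1r, the only gap of 2-fold or more above the parents (0.0109% of genes). It is uncertain with 35.8% shared words, and summed with its 9 near-identical genes it had no gap. The pseudogene AC158239.2 (above) and the genes Gm10076 and Gm13736 (below) likewise had no gap once summed with their copies. Gm42418, a noncoding gene that overlaps the ribosomal RNA row CT010467.1 on chromosome 17, was below at 223, 136, 91.9 and 96.7 FPKM. CT010467.1 itself was at 31.9, 895, 64.1 and 31.9 FPKM, and the part of ribosomal RNA left in each library was not tested. Summing near-identical genes left 1 gene called above and 4 below.

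Gaps were also counted over 46 gene lists of cell types, brain regions and pathways, of which 45 had a measured member and 11 of these had none outside the parents. The comparison values are the 9.15% above and 9.35% below over all genes. Counts at any gap depend on scaling, so those after rescaling to the same total, called rescaling below, are given beside them. The members named are ones outside the parents, chosen after their values were seen. Over all genes rescaling gave 516 above and 380 below, and median-ratio scaling 846 and 907. Under median-ratio scaling 5 presynaptic, 5 channel, 3 postsynaptic and 4 chaperone genes lay above. Proteasome genes then lay below for 4 and above for 0, and those of complexes III, IV and V for 0 and 1.

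**Figure D3:**
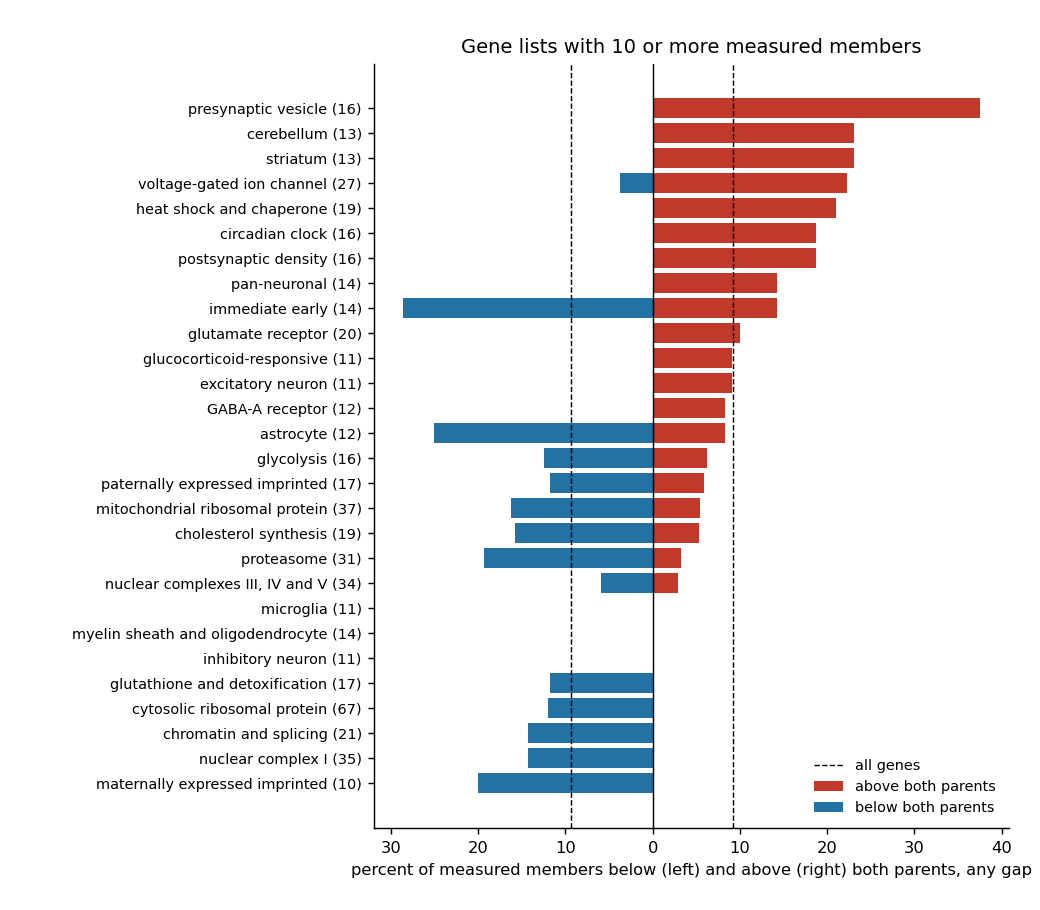
Percent of measured members with both hybrids above both parents (red, right) and below both parents (blue, left) at any gap, for lists with at least 10 measured members (number in brackets); dashed lines give the percent over all 9192 genes. Presynaptic vesicle genes reach 6 of 16 above (1 of 16 after rescaling to the same total), and immediate early genes 4 of 14 below (3 after rescaling).

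Genes of the presynaptic vesicle cycle lay above the parents for 6 of 16 members and below for 0, with a list median of 0.09 against 0.003 over all genes. Cplx1, a complexin that clamps and triggers fusion, was at 160, 172, 186 and 184 FPKM in B6, CAST, F1i and F1r. The SNARE protein Snap25 was at 577, 499, 592 and 635 FPKM. Both gaps were at most 0.09. Cplx2, Syn2 and Syp were among the others above, and 4 of the 6 gaps exceeded 2 counting errors. After rescaling to the same total, 1 of 16 lay above.

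Voltage-gated ion channel genes lay above for 6 of 27 members and below for 1, and the 6 were all potassium channel subunits, among them Kcna1, Kcna2, Kcna4 and Kcnc2. Kcna1, the axonal Kv1.1 subunit, was at 36.2, 35.0, 38.2 and 39.6 FPKM, and was the only one of them with a gap over 2 counting errors. Cacna1h, a T-type calcium channel, lay below at 7.24, 9.66, 6.55 and 6.78 FPKM. Rescaling left 2 above and 0 below. Postsynaptic density genes lay above for 3 of 16 (Shank3, Dlgap3 and Dlg4) and cholinergic genes for 3 of 7 (Chrna4, Chrnb2 and Chrm2), each with 0 below and with 1 above after rescaling.

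Of 13 striatal genes, 3 lay above and 0 below. The dopamine receptor Drd2 was at 4.82, 5.23, 5.91 and 6.69 FPKM, the adenosine receptor Adora2a at 13.5, 13.4, 13.7 and 17.4, and Rasd2 at 28.4, 27.2, 29.6 and 32.8. F1r was the higher hybrid in each, the list median was 0.26 for F1r and 0.0005 for F1i, and 1 member lay above after rescaling. Of 13 cerebellar genes, 3 lay above and 0 below, with Itpr1, the inositol trisphosphate receptor of Purkinje cells, at 121, 121, 136 and 129 FPKM; 4 lay above after rescaling. Of the hippocampal, olfactory bulb, thalamic and midbrain, and hypothalamic lists, with 4, 6, 6 and 8 members, none had a member above and the last had 1 below.

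The chaperone list held 4 of 19 members above and 0 below (1 and 0 after rescaling), and the 4, Sdf2l1, Creld2, Manf and Pdia6, all work in the endoplasmic reticulum. Among 8 members of that compartment, picked out after their values were seen, these 4 lay above and Hspa5, Hsp90b1, Calr and Pdia4 overlapped the parents. Creld2 was at 6.95, 7.18, 7.73 and 8.16 FPKM in B6, CAST, F1i and F1r. Manf was at 26.5, 28.3, 29.8 and 29.3, and Pdia6 at 36.6, 41.7, 42.8 and 43.8; only the gap of Sdf2l1 exceeded 2 counting errors. Such genes are induced together by unfolded protein through the endoplasmic reticulum stress element, searched here on both strands as CCAAT, 9 bases of any kind and CCACG, without overlap with another motif searched. It was found in 39 of 32851 RefSeq promoters (0.119%, GRCm38.p6, from 250 bases before to 50 after the start), and in 5 of the 7 of these genes with a promoter in the table (Calr, Creld2, Hsp90b1, Hspa5 and Pdia6). It was therefore present in genes on both sides of the split. The 250 bases before the start of 3 genes above the parents are shown, with the fixed letters of the element in capitals: Creld2 at chr15:88819396-88819645 (plus strand, element on the opposite strand), Pdia6 at chr12:17266339-17266588 (plus strand), and Sdf2l1 at chr16:17132384-17132633 (minus strand), where these letters were not found.
Creld2: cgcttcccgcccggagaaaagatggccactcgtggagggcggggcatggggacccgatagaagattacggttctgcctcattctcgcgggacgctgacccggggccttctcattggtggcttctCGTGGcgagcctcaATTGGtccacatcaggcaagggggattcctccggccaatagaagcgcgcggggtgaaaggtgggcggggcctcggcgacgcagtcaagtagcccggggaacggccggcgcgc
Pdia6: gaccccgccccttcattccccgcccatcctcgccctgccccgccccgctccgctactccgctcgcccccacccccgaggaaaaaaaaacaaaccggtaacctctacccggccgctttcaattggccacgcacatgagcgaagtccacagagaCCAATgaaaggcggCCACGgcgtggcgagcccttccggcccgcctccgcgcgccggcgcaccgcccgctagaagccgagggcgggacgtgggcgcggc
Sdf2l1: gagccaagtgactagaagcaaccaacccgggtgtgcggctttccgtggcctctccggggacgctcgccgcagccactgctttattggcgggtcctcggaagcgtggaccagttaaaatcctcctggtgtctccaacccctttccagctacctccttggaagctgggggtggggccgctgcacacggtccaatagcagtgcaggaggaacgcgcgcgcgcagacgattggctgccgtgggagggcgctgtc
A match is a description of the sequence and not evidence of binding.

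Immediate early genes, which neurons switch on within minutes of activity, went both ways, with 2 of 14 above (Egr3 and Btg2) and 4 below (Fos, Junb, Nr4a1 and Nr4a3); rescaling left 2 above and 3 below. Junb was at 33.1, 34.2, 26.2 and 29.99 FPKM in B6, CAST, F1i and F1r, Nr4a1 at 22.4, 21.5, 17.6 and 19.4, and Btg2 at 6.06, 5.73, 6.64 and 6.75. In 4 of the 6 the gap exceeded 2 counting errors.

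Astrocyte genes lay above for 1 of 12 and below for 3. Gjb6, the connexin 30 gene, was at 52.0, 60.2, 67.4 and 73.1 FPKM, Aqp4, the water channel of astrocyte endfeet, at 33.5, 27.8, 25.9 and 24.5, and Gfap, the astrocytic intermediate filament, at 57.2, 67.5, 53.5 and 43.1; after rescaling 2 lay above and 2 below. Cholesterol synthesis genes lay above for 1 of 19 (Srebf2) and below for 3, among them Lss and Hmgcs1, and 0 and 5 after rescaling. Hmgcs1, an early synthase of the pathway, was at 87.8, 84.1, 77.6 and 76.3 FPKM. None of 14 myelin, 11 microglial, 11 inhibitory neuron or 5 class I antigen presentation genes lay outside the parents.

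Lists of housekeeping complexes were counted in the same way. Cytosolic ribosomal protein genes lay below for 8 of 67 and above for 0 (10 and 2 after rescaling), close to the 9.35% of all genes, and none of the 8 has under 5% shared words. Besides Rpl30, Rpl13a was at 372, 334, 310 and 309 FPKM, and uncertain. Proteasome genes lay below for 6 of 31 and above for 1 (3 and 0 after rescaling), mitochondrial ribosomal genes below for 6 of 37 and above for 2 (3 and 3), and nuclear complex I genes below for 5 of 35 and above for 0. The nuclear genes of complexes III, IV and V lay below for 2 of 34 and above for 1 (1 and 1 after rescaling). For complex I the direction turned with rescaling to the same total, to 0 below and 3 above, while median-ratio scaling left 3 below and 0 above. No gap in the proteasome, mitochondrial ribosomal and complex I lists exceeded 2 counting errors.

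Genes above and below the parents differed in length. The median transcript length was 3074 bases for genes above, 2260 for genes below and 2593 for genes with overlap. With genes in 5 equal classes by length, 5.93% lay above and 9.90% below in the shortest class, and 12.3% and 5.22% in the longest. The lean was the same among protein-coding genes with under 5% shared words, at 6.49% and 11.1% in the shortest class and 12.3% and 5.0% in the longest. The hybrids differed here: the median difference from the parental mean went from -0.03 in the shortest class to 0.07 in the longest in F1r, and from 0.03 to -0.02 in F1i. The synaptic and channel lists are of long genes, with median lengths of 3998 bases for presynaptic and 6201 for channel genes against 729 for complex I and 762 for ribosomal genes, and how far length accounts for the list counts was not tested.

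**Figure D4:**
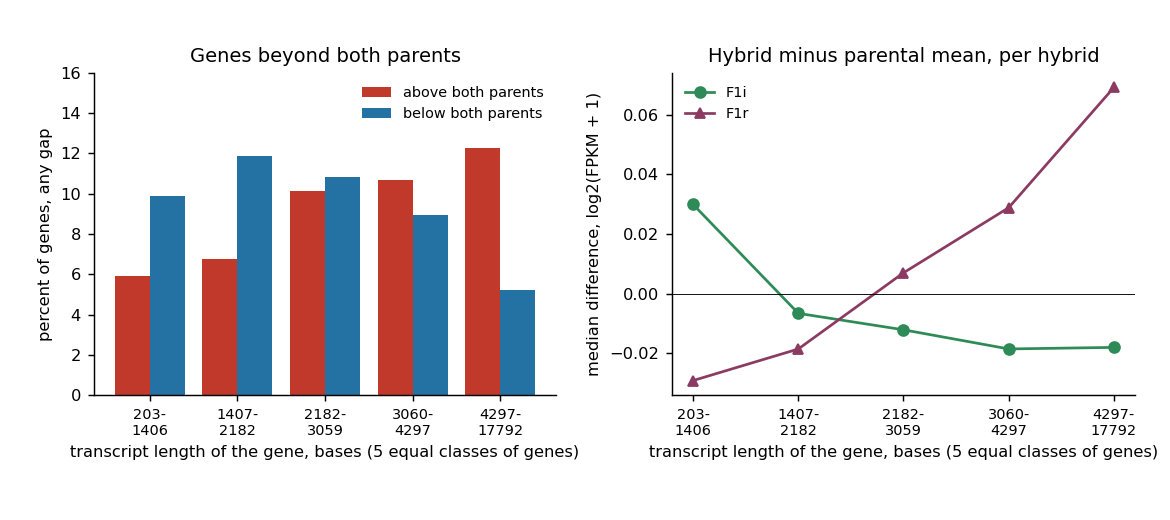
Left, percent of genes with both hybrids above (red) or below (blue) both parents at any gap, by class of transcript length in bases (5 equal classes); right, median difference of each hybrid from the parental mean on log2(FPKM + 1) in the same classes. Genes above rise from 5.93% to 12.3% with length, and the F1r median runs from -0.03 to 0.07 while that of F1i runs from 0.03 to -0.02.

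Dominance was described by the position of each hybrid, (F1 - B6)/(CAST - B6) on FPKM, which is 0 at B6, 1 at CAST and 0.5 midway. Among 351 autosomal genes with parents at least 2-fold apart, 152 higher in B6 and 199 in CAST, both hybrids lay between 0.25 and 0.75 for 267 (76.1%). Both lay under 0.25 for 8 genes (2.28%, B6-like) and over 0.75 for 10 (2.85%, CAST-like), values beyond a parent included, and 66 (18.8%) were mixed. Median positions were 0.513 in F1i and 0.512 in F1r. The same parental libraries chose these genes and set the scale, so positions are a description.

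Among 83 of these genes that are protein-coding with under 5% shared words, 69 were intermediate, 2 B6-like and 0 CAST-like. The 5 intermediate genes named next were picked as examples after their values were seen. Fam213b, listed at 0 in CAST, had 70.3 FPKM in B6, while F1i had 36.4 and F1r 31.9. Pon2, a lactonase of the paraoxonase family, was at 13.4, 0.354, 7.62 and 7.41 FPKM, and Gsta4, a glutathione transferase, at 31.9, 6.93, 19.1 and 17.2. With CAST as the higher parent, Retsat, a retinol saturase, was at 3.61, 25.9, 16 and 15.8 FPKM. Rsph1, a radial spoke protein of motile cilia, was at 1.71, 10.7, 6.54 and 6.04. In these 5 both hybrids lay near the mean of the parents. Rnf181, a ubiquitin ligase picked in the same way from the 12 mixed genes, did not, at 0.46, 12.5, 4.79 and 10.7 FPKM.

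**Figure D5:**
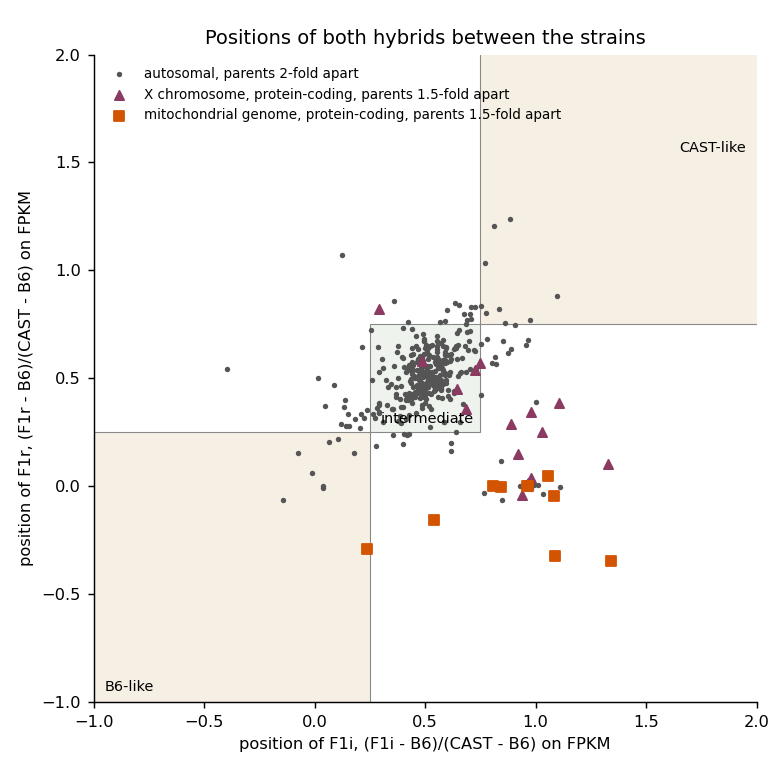
Position of F1r against F1i on the scale where B6 is 0 and CAST is 1, for 351 autosomal genes with parents at least 2-fold apart (grey; 2 lie outside the plotted range) and for protein-coding genes of the X chromosome (triangles) and mitochondrial genome (squares) with parents at least 1.5-fold apart. Boxes mark both hybrids intermediate, B6-like or CAST-like: 267 grey points lie in the middle box, and 8 squares and 4 triangles lie at F1i over 0.75 with F1r under 0.25.

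Of the 18 genes under 0.25 or over 0.75 in both hybrids, 2 lay outside both parents, Gm10705 below and Gm14391 above, and neither had a gap once summed with its near-identical genes. Of the other 16, 13 followed the lower parent and 3 the higher on this FPKM scale. A position taken on log2 lies nearer the higher parent for any hybrid between the parents, so this lean depends on the scale. With positions on log2, 16 genes were B6-like and 36 CAST-like, against 8 and 10 on FPKM, and lower and higher parent were not counted. B6-like with CAST higher were Atg16l2, a paralogue of the autophagy gene Atg16l1, at 9.14, 21.7, 8.22 and 11.1 FPKM in B6, CAST, F1i and F1r, and Cnpy1, a canopy family gene, at 4.92, 11.2, 6.04 and 5.89. Both hybrids stayed close to B6 in each, with positions from -0.07 to 0.18, and neither gene is uncertain, though Atg16l2 overlaps Fchsd2 on the opposite strand. Sfi1, a centrin-binding protein of centrosomes, was at 2.38, 16.6, 3.90 and 5.46 FPKM, and Zfp141 at 3.92, 9.0, 4.25 and 4.96, both uncertain. Summed with its near-identical copy, Zfp141 had an F1r position of 0.402 and was no longer B6-like. CT010467.1, AY036118 and Gm6710 complete this group beside Gm10705, and no gene was B6-like with B6 higher.

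CAST-like genes with B6 higher were Snora73b, a guide RNA of ribosomal RNA maturation, Coro1b, Gapdh, Ifitm3, Hmgn2 and Gm14325, all uncertain. Coro1b, an actin-regulating coronin, was at 17.4, 5.26, 6.65 and 2.35 FPKM, and Ifitm3, an antiviral membrane protein, at 10.5, 4.41, 3.83 and 5.13. In both, one hybrid lay under the lower parent. Gapdh, the glycolytic dehydrogenase, was at 21, 7.17, 10.6 and 9.43 FPKM, but with its 42 near-identical copies summed the parents differed by only -0.42. Summed likewise, Hmgn2 had positions of 0.623 and 0.652 and was no longer CAST-like, the parents of Snora73b differed by -0.61, and Gm14325 had CAST higher with positions of 0.084 and 0.236. Pigz, an enzyme of glycosylphosphatidylinositol anchors, was CAST-like with CAST higher at 5.62, 17.6, 17.3 and 14.8 FPKM, with 6.29% shared words, beside Gm3724 and Gm28437. All 3 are uncertain. Summed with its near-identical copies, Gm3724 had B6 higher and positions of 0.368 and 0.565. Gm28437 summed with mt-Co3 had an F1r position of 0.085, so neither stayed CAST-like.

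With smaller parental differences let in, more genes again followed the lower parent than the higher on FPKM, a lean that depends on the scale as above. Among 2257 autosomal genes with parents at least 25% apart, 136 were B6-like (6.03%), 96 CAST-like (4.25%), 1044 intermediate (46.3%) and 981 mixed (43.5%), and 161 lay on the side of the lower parent against 71 on that of the higher, or 136 against 51 without genes outside both parents. With parents this close, small library differences move a gene across a boundary. Among unshared protein-coding genes with parents at least 1.5-fold apart, chosen after their values were seen, Vegfa, the endothelial growth factor, was at 15.2, 25.1, 15.2 and 16.2 FPKM in B6, CAST, F1i and F1r. Dcn, the matrix proteoglycan decorin, was at 13.5, 8.48, 8.67 and 8.55, with both hybrids at CAST. Toward the higher parent, Mfsd2a, a lipid transporter of the blood-brain barrier, was at 8.72, 13.9, 12.9 and 13.3, Slc5a3, the inositol transporter, at 10.6, 17.1, 15.9 and 16.3, and Zdhhc17, a palmitoyltransferase, at 29.4, 53.8, 49.1 and 49.1. For these 3 both hybrids lay near CAST.

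Of 10 protein-coding mitochondrial genes with parents at least 1.5-fold apart, 8 had F1i over 0.75 and F1r under 0.25. The medians over the 10 were 0.964 and -0.03, and 7 of the 8 are uncertain, mt-Nd1 being the exception. Of 28 X-linked genes 5 did so, 4 protein-coding ones and the noncoding RNA Firre, which was at 10.9, 2.66, 2.69 and 14.1 FPKM in B6, CAST, F1i and F1r. The 4 protein-coding ones are all uncertain, and Firre is not. The 14 protein-coding X-linked genes had median positions of 0.904 in F1i and 0.351 in F1r, against 0.584 and 0.441 over all 28, and 5 of them were intermediate in both hybrids. Among 799 autosomal genes 17 had this arrangement and 10 its opposite. Cox20, an assembly factor of cytochrome oxidase (14.4% shared words, uncertain), was of the latter, at 0.496, 11.9, 1.89 and 12.7 FPKM. The 17 include the pseudogenes Gm10925, Gm13339, Gm13340, Gm13341, Gm28661 and Gm29216, all uncertain. Gm13340 was at 19.3, 3301, 3131 and 20.96 FPKM in B6, CAST, F1i and F1r. Whether these pseudogenes carry mitochondrial sequence was not tested, so the 17 may not be a comparison apart from the mitochondrial genes.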

How the data were processed

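Each library came as 1 table deposited by the authors, with the FPKM, gene, locus and length of 128603 transcripts. Per the labels' protocols, the library kit was strand-specific. The tools named are Cufflinks 2.2.1 with Cuffdiff, HISAT2, Trimmomatic 0.36 and bcl2fastq 2.20, on mm9, per the submitters' processing notes. The loci in the tables are those of GRCm38, since 97.2% of the transcripts found in GENCODE M21 had the same start and end, so coordinates are GRCm38. Whether strand was used in counting, what was done with reads of several matches and whether alignment used a CAST genome is not given in the sources used here; loss of CAST reads on a B6 reference would move CAST and, by less, the hybrids.

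FPKM were summed per gene over transcripts of at least 200 bases, kept at a mean of at least 5, and compared on log2(FPKM + 1). With 1 library per group no p-values are given: a test of 2 hybrid against 2 parental libraries would take strain and cross differences as its error, and was not made. Fragments were estimated from the FPKM worth of 1 fragment in transcripts of at least 3000 bases. Shared sequence is the percent of a gene's 31-base words found in transcripts of other genes in GENCODE M21. Named genes are the 12 protein-coding and 3 other genes with the largest gaps per direction and up to 6 genes per dominance class and higher parent, placeholder names being passed over but counted; exceptions are marked where they occur. For lists, members outside the parents were named in place of the planned choice by hybrid difference. The lists, rules and comparisons were chosen with earlier results of these data known. Alternatives were other pseudocounts, filters, scalings, thresholds, gene types, single transcripts and each hybrid alone; summing of near-identical genes and a limit of 2 counting errors were added after the data were seen. The steps were tested on simulated data with Python 3.11.15, pandas 2.3.3, numpy 2.4.6 and, for figures, matplotlib 3.10.9.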

Additional observations from a re-analysis of the deposited data

Results flagged for a closer look

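In 2 pseudogenes one hybrid lay above both parents and the other below both by at least 25% on FPKM + 1, so that the hybrids went opposite ways. Gm9824 was at 50.6 and 47.6 FPKM in B6 and CAST against 36 in F1i and 73.0 in F1r, with an F1r minus F1i difference of 1.0. Gm20568 was at 13.4, 12.7, 17.1 and 8.02 FPKM, with a difference of -1.01. Both are uncertain, with 76.5% and 51.7% shared words, and the difference between the hybrids was not tested.

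Transcripts under 200 bases were left out of the comparison. Summed by gene, 310 genes of such transcripts had a mean FPKM of at least 5, and 9 of them (2.90%) lay above both parents by 2-fold and 5 (1.61%) below. FPKM of molecules this short depends strongly on the length correction.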

How the results depend on the processing

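No paired analysis was possible because each group is 1 library. All 35 genes named for lying outside the parents kept their direction, and none lost a call, under median-ratio scaling. A pseudocount of 0.1 can only enlarge a gap, and a looser filter on mean FPKM leaves it unchanged, so neither is a check of this. After rescaling to the same total 7 called genes were no longer called and 2 others were. As reported, 3 genes lay above and 7 below both parents by the called gap, 841 and 859 at any gap, hybrid means were higher for 77 and lower for 8, and 2.28% of genes were B6-like, 2.85% CAST-like and 76.1% intermediate. A mean FPKM of 1 or more gave 17 above and 24 below called, 1358 below at any gap, 117 higher, 35 lower and 68.3% intermediate. No filter gave 40 and 56, 2511 and 2899, 134 and 73, and 5.85% B6-like, 5.47% CAST-like and 63.1% intermediate. A mean of 20 or more gave 0 and 3, 349 and 260, 39 and 3, and 83.2% intermediate. Rescaling to the same total gave 516 above and 380 below at any gap and 2 below called. Single transcripts gave 38 and 38 called, 166 higher, 59 lower, 6.98% B6-like and 62.5% intermediate. Protein-coding genes alone gave 4 below, 26 higher, 4 lower and 80.7% intermediate; genes with under 5% shared words gave 1 above, 3 below, 9 higher, 2 lower, 0% CAST-like and 81.25% intermediate. F1i alone gave 15 above and 31 below, 1624 and 2137 at any gap, and 25 lower; F1r alone gave 26 and 45, 2335 and 1804, and 31 lower. A gap of 1.5-fold or 2-fold gave 1 above and 1 below, any gap 841 and 859. Against the arithmetic parental mean 4 were higher and 13 lower. Positions on log2 gave 4.56% B6-like, 10.3% CAST-like and 63.5% intermediate, parents 1.5-fold apart 64.5%, and boundaries of 0.2 and 0.8 81.8%. Near-identical genes summed, added after the data were seen, left 1 above and 4 below, and turned Rpl30-ps10 to -0.30 and Snrpert to 0.18, since each sum is led by the parent gene. The other causes were not tested. Of 131 alternatives for these counts, shares and list medians 65 stayed close to the reported value and 66 moved. Depth limits gaps of the size seen at any gap, whose median lies under the counting error.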

Other observations

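Some lists not described above had few members outside the parents. Chromatin and splicing genes lay above for 0 of 21 and below for 3, and counts after rescaling were not made for them. Their list median was -0.12, with -0.20 in F1i and -0.06 in F1r, and 2 of the 21 had a hybrid mean above the parental mean. Oligodendrocyte precursor genes lay above for 2 of 7 and below for 0, with Gpr17, a receptor of cells committed to myelination, at 5.92, 4.91, 6.64 and 6.69 FPKM in B6, CAST, F1i and F1r, and the transcription factor Olig2 at 6.32, 6.36, 7.15 and 6.89; after rescaling to the same total the counts were 2 and 0. Circadian clock genes lay above for 3 of 16 (Tef, Nr1d2 and Bhlhe41) and below for 0, or 1 and 0 after rescaling, with no gap over 1 counting error and Nr1d2 uncertain. Of 10 maternally expressed imprinted genes 2 lay below, Blcap at 47.0, 49.2, 45.8 and 46.4 FPKM and Kcnk9 at 12.9, 12.2, 11.7 and 12.2, and 0 after rescaling. Hypoxia-responsive genes lay above for 1 of 6 (Ndrg1) and below for 2 (Pfkfb3 and Bnip3, the latter uncertain), and for 1 and 1 after rescaling.

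By autosome, genes above both parents at any gap ran from 6.67% on chromosome 3 to 13.75% on chromosome 18, and genes below from 6.65% on chromosome 11 to 12.7% on chromosome 3. The level of expression made less difference than length, with 10.3% above and 10.5% below in the lowest of 5 equal classes by mean FPKM and 10.1% and 7.5% in the highest.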
